A study of Mus musculus with 15 samples.

Results

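The genes described here encode the proteins of the cytosolic ribosome, together with the paralogues that resemble some of them and bear a related name. They were chosen by name, as symbols of the Rpl and Rps series with a number, the stalk genes Rplp0, Rplp1 and Rplp2, and Rpsa. Of 55536 genes in the deposited tables, 87 matched and 81 of these had a mean normalized count of 10 or more over 15 samples. These 81 members comprise 75 core ribosomal protein genes and 6 paralogues, namely Rpl3l, Rpl22l1, Rpl7l1, Rps27l, Rps4l and Rpl6l. The measurements are RNA levels in skeletal muscle of 15 mice aged 2 months and labelled male. In the labels, 5 mice were wild type (control), 5 lacked Pdgfrb, a receptor gene for platelet-derived growth factor (knockout), and 5 carried the D489V allele of Pdgfrb, which the series describes as constitutively active (D489V). The series describes both changes as specific to cells that express myogenin, a factor of the differentiating cells that form muscle fibres, so that other cells of the muscle would keep the normal gene. The labels do not give the muscle, strain, Cre line or batch, and the p-values below measure only the spread between these samples.

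A ribosome is built from a small subunit, which reads the messenger RNA, and a large subunit, which joins the amino acids. Each subunit carries 1 copy of most of its proteins, so the core genes are usually expressed at related levels. Many of their messenger RNAs begin with a stretch of pyrimidines (C and T in DNA letters), the terminal oligopyrimidine motif, through which their translation follows growth signals such as mTOR. A few core proteins have a paralogue that can take the same place in the ribosome. The best known of these in striated muscle is Rpl3l, which is made in fibres and replaces Rpl3, a protein that reaches to the peptidyl transferase centre. Bulk RNA of this kind cannot tell fewer cells of a type from less RNA per cell.

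The start sites of the genes on which the results turn are shown first, because the pyrimidine stretch differs among them. Each line holds 30 bases before and 20 bases from the transcription start of RefSeq on GRCm38.p6, read 5′ to 3′ on the gene's strand. The capitals mark the longest run of C and T that overlaps the zone from 5 bases before to 10 bases after the start.
Rps10, chr17:27635225-27635274, minus strand: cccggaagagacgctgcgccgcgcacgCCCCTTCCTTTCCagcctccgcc
Rps18, chr17:33955646-33955695, minus strand: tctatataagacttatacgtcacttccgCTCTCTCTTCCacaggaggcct
Rps28, chr17:33824543-33824592, minus strand: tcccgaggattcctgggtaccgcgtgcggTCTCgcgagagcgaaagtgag
Rps27, chr3:90213629-90213678, minus strand: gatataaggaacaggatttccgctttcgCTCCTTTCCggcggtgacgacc
Rpl22l1, chr3:28805478-28805527, plus strand: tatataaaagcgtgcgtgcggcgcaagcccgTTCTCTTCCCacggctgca
Rpl3l, chr17:24727796-24727845, plus strand: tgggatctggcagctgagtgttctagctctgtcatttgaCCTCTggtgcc
The first 3 belong to members that differed between knockout and D489V, the next pair to members that were high in knockout replicate 5, and the last to the muscle paralogue. The run was 13 bases long in Rps10, 11 in Rps18, 10 in Rpl22l1, 9 in Rps27, 5 in Rpl3l and 4 in Rps28.

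RefSeq start windows were found for 59 of the 81 members, 71 windows in all, because some genes have several start sites. A run of 8 or more pyrimidines overlapped the same zone in 36.6% of the member windows, against 11.3% of all 32851 windows. The zone was again that from 5 bases before to 10 bases after the start, so a run need not cover the start itself. Other short motifs were counted on either strand in the whole window of 250 bases before and 50 bases from the start. The motif CCGGAAG, to which ETS factors and GABP can bind, was in 35.2% of member windows and 8.86% of all windows. AAGATGG, part of the motif of YY1, was in 16.9% and 6.34%. GGGCGG, which Sp1 can bind, was in 60.6% and 35.7%. The E-box CANNTG, recognised by myogenic factors among many others, was in 50.7% of member windows and 72.3% of all windows. These are matches of letters and not measured binding sites, and several windows of 1 gene overlap or share sequence.

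Normalized counts are the authors' values, scaled between samples and rounded. Sample medians were on 1 scale in both tables, with a median ratio to the geometric mean of 1.0069 to 1.0097. Pdgfrb itself spanned 1673 to 1848 among controls, 958 to 1628 among knockout samples and 820 to 1062 among D489V samples, so that neither mutant group overlapped the controls and RNA of the gene remained in all knockout samples. Xist, the RNA of the inactive X chromosome, reached 3165 in knockout replicate 3 and did not exceed 101 in any of the other 14 samples, although all mice were labelled male. The 10 fast-fibre markers summed to 5270398 to 7476202 per sample and the 9 slow-fibre markers to 9280 to 235331, so that fast muscle genes were high in every sample while the slow-fibre genes varied widely within each group.

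The 81 members together took 1.36% ± 0.255 (SD, n = 5) of all normalized counts in control, 1.27% ± 0.170 (SD, n = 5) in knockout and 1.41% ± 0.164 (SD, n = 5) in D489V muscle. The samples ranged from 1.02% to 1.66%, from 1.00% to 1.41% and from 1.22% to 1.61% in the same order. The ranges of the 3 groups overlapped. Rpl3l alone contributed 0.0557% to 0.0677% of all counts in a sample.

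Levels of different genes are compared here per kilobase of annotated exon, averaged over 15 samples. Rplp1, an acidic protein of the stalk that recruits elongation factors, was highest at 15263 normalized counts per kb. Rps2, a protein at the entry of the messenger RNA into the small subunit, followed at 14365 per kb, and Rpl3l was in the next place at 11816 per kb. This order depends on the length used: per kilobase of the longest coding sequence, the control mean was 28500 for Rps14, 28327 for Rps2, 21611 for Rplp1 and 15219 for Rpl3l, with further members above Rpl3l. The lowest members were Rpl6l, a processed pseudogene, at 15.4 per kb, Rps10 at 20.3 per kb and Rpl13a at 32.3 per kb. Rps10 and Rpl13a encode core proteins, of the small-subunit head and of the large subunit. In Rps10, 80.1% of the coding bases lie under exons of another gene on the same strand, the read-through gene RPS10-NUDT3. In Rpl13a, 90.3% of the coding bases lie under exons of 3 other genes, of which Gm45713 overlaps the most exon bases. Overlap with 1 other gene was also high in Rpl24 (83.4%, Gm28037) and Rpl36al (95.3%, Gm49383), which fell below the mean of 10. The next highest overlap among the members was 13.6%, in Rpl19. The part of this overlap in the low levels was not tested.

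The threshold of the rule separated Rpl6l, at a mean normalized count of 13.4, and Rps10, at 46.9, from Rpl39l at 9.47 and Rpl24 at 7.07. Rpl36al had a mean of 7.0, Rpl32l of 1.73 and Rps12l1 of 0.73, and Rpl10l, a paralogue known from testis, was listed at 0 in all samples. Reads of some members can also belong to processed pseudogenes of near-identical sequence. All 50-base stretches of Rpl3l were unique among the annotated transcripts of other genes, whereas 81.1% of those of Rpl36, 60% of those of Rplp1, 35.0% of those of Rpl3 and 14.9% of those of Rps4l were shared with at least 1 other gene. Such values are uncertain to the extent that the authors' counting divided the reads.

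The family moved together from sample to sample, and this movement crossed the groups. For each member, the log2(value + 1) in a sample was set against the member's own mean over 15 samples. The median of these differences was 0.38 in control replicate 1, where 72 of 81 members lay above their own mean and 35 were at their highest. It was -0.38 in control replicate 3, where 77 of 81 lay below and 60 were at their lowest. The 5 controls therefore held both the highest and the lowest sample. In D489V replicates 1, 2 and 3 the median was 0.23, 0.16 and 0.25, and in D489V replicates 4 and 5 it was -0.12 and -0.088. The knockout samples lay between -0.23 in replicate 1 and 0.039 in replicate 5. The first principal component of the members held 56.4% of their variance and the second 20.6%. The same measures were not taken for other genes, so the movement is not shown to be particular to this family.

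**Figure D1:**
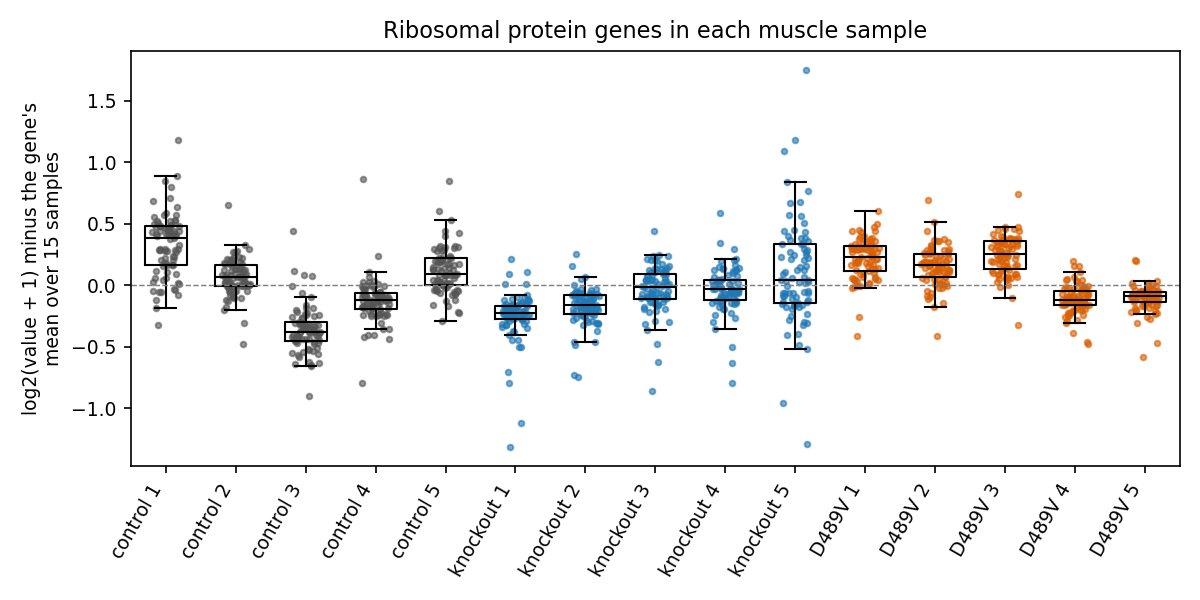
Difference of log2(value + 1) from each gene's mean over 15 samples (vertical axis), with 1 point per member and sample; boxes give the median and quartiles, and whiskers reach the outermost values that are not far from the box. Control replicates 1 and 3 have the highest and lowest medians, 0.38 and -0.38, and knockout replicate 5 has the widest spread.

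Members differed in how much they varied. Rpl3l was the steadiest of all 81, with a standard deviation of 0.109 on the log2 scale over 15 samples, followed by Rplp0, the base of the stalk, at 0.114 and Rpl7, a large-subunit protein, at 0.115. Its standard deviation lay at percentile 5.4 among 6241 genes with a mean of 500 or more. The 77 members with such a mean had a median standard deviation of 0.249, against 0.217 for these genes. In 53 of 81 members the highest sample was less than 2 times the lowest. The most variable were Rps4l, at 0.627, Rpl22l1, at 0.569, Rps10, at 0.554, Rpl30, at 0.519, and Rpl3, at 0.516.

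Some members departed from the common movement. Rpl30, a large-subunit protein that binds kink-turn RNA, had normalized counts of 1376, 1235, 2343, 3142 and 2340 in control replicates 1 to 5. It had 992, 2058, 2341, 2188 and 2757 in knockout and 1439, 1291, 1604, 1237 and 1148 in D489V replicates 1 to 5. Thus controls 1 and 2, knockout 1 and all D489V samples lay at or below 1604, and the other 7 samples lay at or above 2058, with no sample between. Rps2 had 26558, 28890, 13651, 30051 and 29170 in controls, 15674, 28396, 18282, 31258 and 32140 in knockout, and 27979, 31518, 29075, 26761 and 24904 in D489V samples. Control 3 and knockouts 1 and 3 stood below all other samples for Rps2. Rpl29, a small basic large-subunit protein, was 3800 to 5476 in controls and 4574 to 6380 in D489V, and in knockout replicates 1 to 5 it was 4516, 4383, 4756, 2883 and 2307, so that knockouts 4 and 5 lay below every control and every D489V sample. The cause of these splits was not tested.

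The muscle paralogue Rpl3l (chromosome 17, 24727820 to 24736143, plus strand, GRCm38) far exceeded Rpl3 (chromosome 15, 80077791 to 80091868, minus strand) in every sample. Rpl3l had 18286, 19548, 18082, 19719 and 17278 normalized counts in control replicates 1 to 5. Its values were 22363, 18714, 17995, 17711 and 19832 in knockout and 21200, 21371, 20716, 19066 and 19331 in D489V. The groups overlapped and the highest sample was 1.29 times the lowest. Rpl3 had 2699, 2222, 2142, 1500 and 3646 in controls, 935, 1221, 1581, 3054 and 2560 in knockout, and 2019, 1878, 2823, 2100 and 1878 in D489V samples. Its highest sample, control 5, was 3.90 times its lowest, knockout 1. Per kilobase of exon the control mean of Rpl3l was 11310 and that of Rpl3 769, a ratio of 14.7. Exons of Rpl3 include annotated transcripts that are not coding, and per kilobase of the longest coding sequence (1221 bases in Rpl3l and 1209 in Rpl3) the ratio was 7.54.

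Within a sample, the normalized count of Rpl3l was 4.74 times (control 5) to 23.9 times (knockout 1) that of Rpl3. The log2 ratio was 2.99 ± 0.540 (SD, n = 5) in control, 3.50 ± 0.804 (SD, n = 5) in knockout and 3.26 ± 0.247 (SD, n = 5) in D489V. Differences of 0.52 for knockout against control, 0.28 for D489V against control and 0.24 for knockout against D489V gave p = 0.27, 0.317 and 0.556 in two-sided exact permutation tests of 5 against 5 samples. The smallest p this design allows is 0.00794. Over the 18 tests of 6 pairs and 3 comparisons, the Benjamini-Hochberg adjusted values were 0.607, 0.635 and 0.733. For Rpl3l alone, the limma estimate of the log2 difference was 0.053 for knockout against control (95% interval -0.16 to 0.27, negative under 3 other scalings) and 0.13 for D489V against control (95% interval -0.056 to 0.32).

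**Figure D2:**
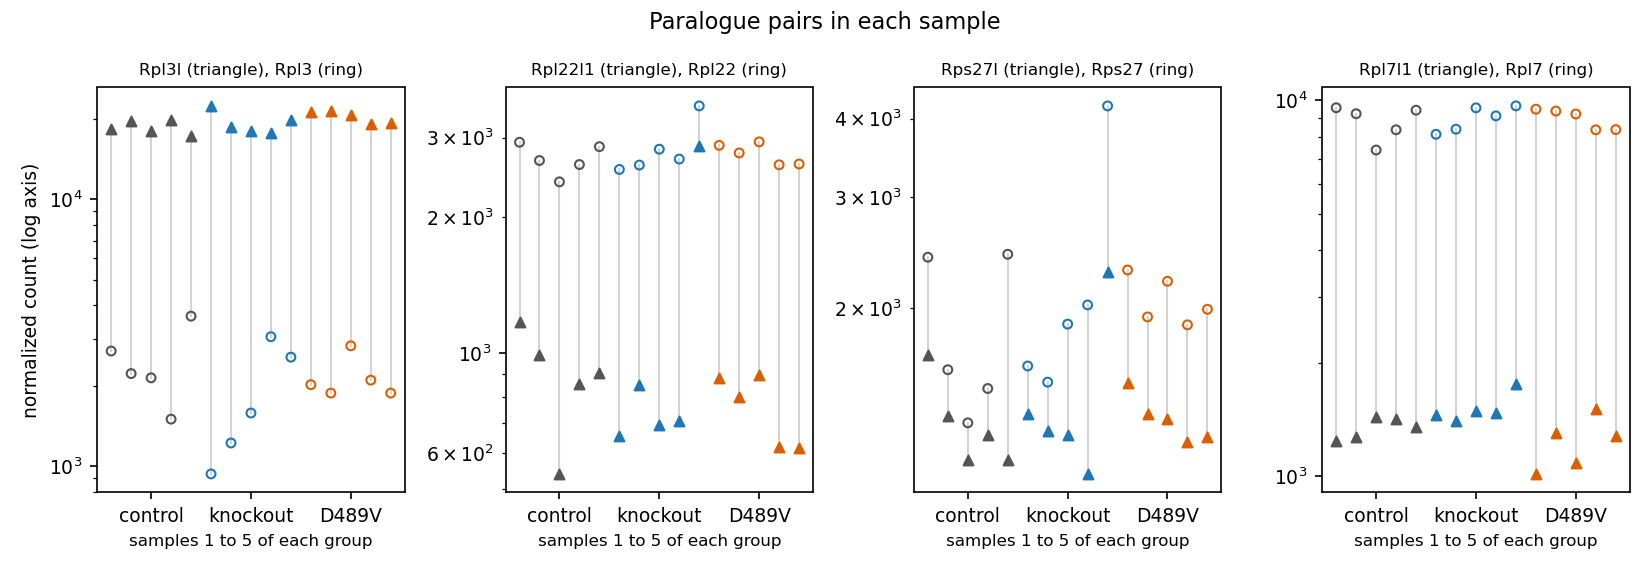
Normalized counts (vertical log axis) of 4 paralogues (triangles) and their core partners (rings) in each of 15 samples, ordered as replicates 1 to 5 within control, knockout and D489V. Rpl3l lies above Rpl3 in every sample and between 17278 and 22363, whereas Rpl22l1 and Rps27l reach 2869 and 2286 in knockout replicate 5.

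Rpl22l1 is the paralogue of Rpl22, an RNA-binding protein of the large subunit that is known to repress Rpl22l1. Rpl22l1 had 1173, 991, 539, 854 and 903 normalized counts in controls, 654, 850, 691, 706 and 2869 in knockout, and 879, 800, 891, 617 and 615 in D489V samples. Knockout replicate 5 stood far above the next highest sample, control 1, and the other values overlapped. The log2 ratio to Rpl22 was -1.64 ± 0.319 (SD, n = 5) in control, -1.57 ± 0.727 (SD, n = 5) in knockout and -1.88 ± 0.191 (SD, n = 5) in D489V, with exact permutation p of 0.913, 0.175 and 0.54 for the comparisons in the order above. None passed after adjustment, at 0.913, 0.524 and 0.733.

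Rps27l, a paralogue of the zinc-finger protein Rps27 and a known target of p53, was 1147 to 1682 in controls, 1090 to 1356 in knockout replicates 1 to 4, 2286 in knockout 5 and 1227 to 1519 in D489V. Its partner Rps27 was 1314 to 2435 in controls, 1525 to 2023 in knockout replicates 1 to 4, 4191 in knockout 5 and 1881 to 2299 in D489V. Both were therefore highest in the same sample. The log2 ratio of the pair was -0.46 ± 0.374 in control, -0.57 ± 0.313 in knockout and -0.63 ± 0.0805 in D489V (SD, n = 5 each), with exact permutation p of 0.611, 0.389 and 0.706. Adjusted values were 0.733, 0.636 and 0.795.

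Rpl7l1, a Rpl7 relative that acts in assembly of the large subunit, was 1242 to 1435 in controls, 1398 to 1762 in knockout and 1013 to 1509 in D489V. Its log2 ratio to Rpl7 was -2.71 ± 0.240 in control, -2.57 ± 0.0963 in knockout and -2.87 ± 0.301 in D489V (SD, n = 5 each). The knockout ratio exceeded that of D489V by 0.30, with an exact permutation p of 0.0635 and an adjusted value of 0.357. Rps4l, annotated as a transcribed processed pseudogene, had normalized counts of 321, 222, 140, 106 and 121 in controls, 150, 102, 91, 99 and 57 in knockout and 196, 228, 186, 162 and 126 in D489V. Its log2 ratio to Rps4x, the core gene of the small subunit, was -5.65 ± 0.695 in control, -6.47 ± 0.517 in knockout and -5.60 ± 0.297 in D489V (SD, n = 5 each). The difference of knockout and D489V, -0.86, gave an exact permutation p of 0.0238 and an adjusted value of 0.357, and so did not pass the correction. As a muscle pair outside the family, the elongation factor genes Eef1a2 and Eef1a1 had log2 ratios of 1.82 ± 0.332 in control, 2.22 ± 0.401 in knockout and 1.72 ± 0.230 in D489V (SD, n = 5 each). Their difference between knockout and D489V, 0.50, had an exact permutation p of 0.0397 and an adjusted value of 0.357, the lowest adjusted value reached in the 18 tests.

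Whether loss of Pdgfrb in the myogenic lineage changed the ribosomal protein genes was addressed by comparing knockout with control muscle. No member passed a limma test at a Benjamini-Hochberg adjusted p under 0.05 over all genes, against 0.00656% of the 15234 genes tested. The lowest limma adjusted p among the members was 0.305, and 2 of 81 had an unadjusted p under 0.05, against 15.1% of all genes. The log2 difference was negative in 54 members and positive in 27, with a median of -0.054, beside 0.011 for all genes. Of the 42 large-subunit members 33 were negative, and of the 30 small-subunit members 18. No member had groups without overlap, against 2.24% of all genes.

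The greatest negative differences were those of Rps4l, -0.80 (SE 0.322, limma adjusted p = 0.312), Rps10, -0.80 (SE 0.294, limma adjusted p = 0.305), Rpl3, -0.46 (SE 0.322, limma adjusted p = 0.472), Rpl6l, -0.41 (SE 0.326, limma adjusted p = 0.535), and Rpl29, -0.35 (SE 0.199, limma adjusted p = 0.398). Rps4l, Rps10 and Rpl6l were read at low levels, and Rpl3 and Rpl29 varied widely among the knockout samples. The greatest positive differences included Rps27, 0.22 (SE 0.271, limma adjusted p = 0.691), and Rps14, a protein of the small-subunit platform, 0.21 (SE 0.156, limma adjusted p = 0.51). Without knockout replicate 5 the estimate was -0.031 for Rps27, 0.064 for Rps14 and -0.18 for Rpl29. For Rpl3 it was -0.25 without knockout replicate 1 and -0.30 without control replicate 5, and for Rpl6l -0.63 without control replicate 4. The sign of the median also rested on single libraries: it was 0.0085 without control replicate 1, when 44 members were positive, and -0.16 without control replicate 3, when 14 were.

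In D489V against control, again no member passed, against 0.0587% of the 15339 genes tested. Of the 81 members, 1 had an unadjusted p under 0.05 (9.43% of all genes), and none had groups without overlap (2.16% of all genes). That member was Rpl30, with a log2 difference of -0.56 (SE 0.230, limma adjusted p = 0.477), whose D489V samples lay at 1148 to 1604. The difference was positive in 69 members and negative in 12, with a median of 0.093, beside 0.0019 for all genes. The greatest positive values included those of Rps18, 0.30 (SE 0.191, limma adjusted p = 0.661), and Rpl36, 0.25 (SE 0.192, limma adjusted p = 0.716). Without control replicate 3, the sample with the lowest family level, 38 members were positive, the median was -0.0023, and the differences of Rps18 and Rpl36 were 0.16 and 0.13. That of Rpl36 was 0.40 without control replicate 1.

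**Figure D3:**
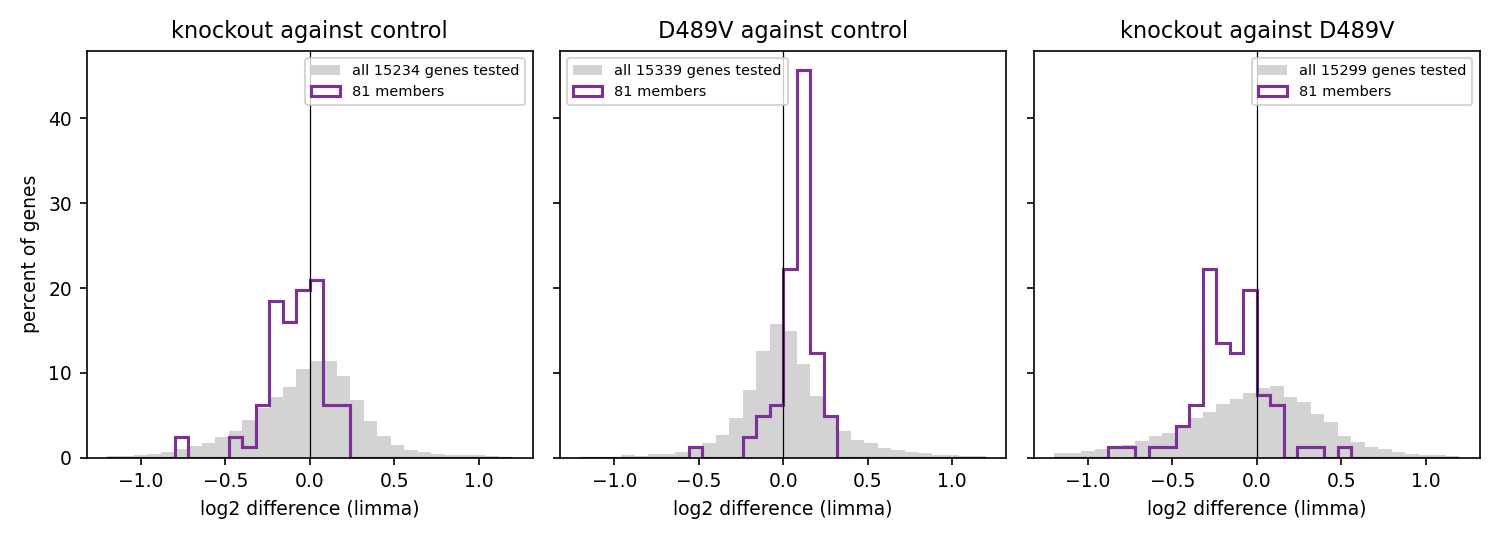
Share of genes (vertical axis, percent) by log2 difference in bins of 0.08 (horizontal axis) for each comparison, with all tested genes in grey and the 81 members outlined in purple; differences beyond 1.2 in either direction are not drawn. The members' medians are -0.054, 0.093 and -0.16, beside 0.011, 0.0019 and 0.0004 for all genes.

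Knockout and D489V muscle were also compared directly, which the identical control columns of both tables allow. Here 7 of 81 members (8.64%) passed the limma test, all lower in knockout, against 20.8% of the 15299 genes tested and 10.3% that passed as lower. An unadjusted p under 0.05 was found for 24 members, against 37.7% of all genes, and groups without overlap for 1 member, Rps10, against 13.9% of all genes, or 6.7% with knockout lower. The difference was negative in 67 members and positive in 14, with a median of -0.16, beside 0.0004 for all genes. Of the 7 members, 4 encode small-subunit proteins, 2 large-subunit proteins, and 1 is the pseudogene Rps4l.

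Rps18, a protein of the small-subunit head, had normalized counts of 3665, 4465, 5682, 4888 and 4217 in knockout and 7070, 7064, 6706, 5320 and 5013 in D489V replicates 1 to 5. Knockout 3 was the one knockout sample above the lowest D489V samples, and the controls spanned 3370 to 7257. The log2 difference was -0.44 (SE 0.136, limma adjusted p = 0.0381).

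Rps28, which lies near the exit of the messenger RNA, had 973, 969, 1064, 1026 and 859 in knockout and 1469, 1357, 1467, 1014 and 1114 in D489V, with controls at 811 to 1686. Its log2 difference was -0.38 (SE 0.116, limma adjusted p = 0.0376). Rps10 (chromosome 17, 27630418 to 27636669, minus strand) had 17, 31, 35, 34 and 39 in knockout and 51, 54, 74, 49 and 41 in D489V, with controls at 34 to 82. Its log2 difference was -0.79 (SE 0.249, limma adjusted p = 0.0418), and the overlap with the read-through gene given above applies to these values. These 2 small-subunit genes thus differed at very different levels, and the Rps28 groups overlapped through D489V replicate 4.

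Among large-subunit genes, Rpl36 had 2431, 2353, 2487, 2482 and 2247 in knockout and 3876, 3424, 3739, 2470 and 2744 in D489V, with controls at 1907 to 4069. Its log2 difference was -0.42 (SE 0.121, limma adjusted p = 0.0321). Rpl32 had 2610, 2447, 2729, 2766 and 2649 in knockout and 3714, 3909, 3889, 2737 and 2853 in D489V, with controls at 2223 to 4341. Its log2 difference was -0.36 (SE 0.112, limma adjusted p = 0.0417). In both genes the knockout samples lay close together, D489V replicates 1 to 3 were high, and D489V replicates 4 and 5 lay near the knockout values. Rps4l, with the values given above, had a log2 difference of -0.88 (SE 0.235, limma adjusted p = 0.024). In 4 of the 6 genes given here the controls' range enclosed both group means, the exceptions being Rps4l and Rps10, whose knockout means lay below every control.

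**Figure D4:**
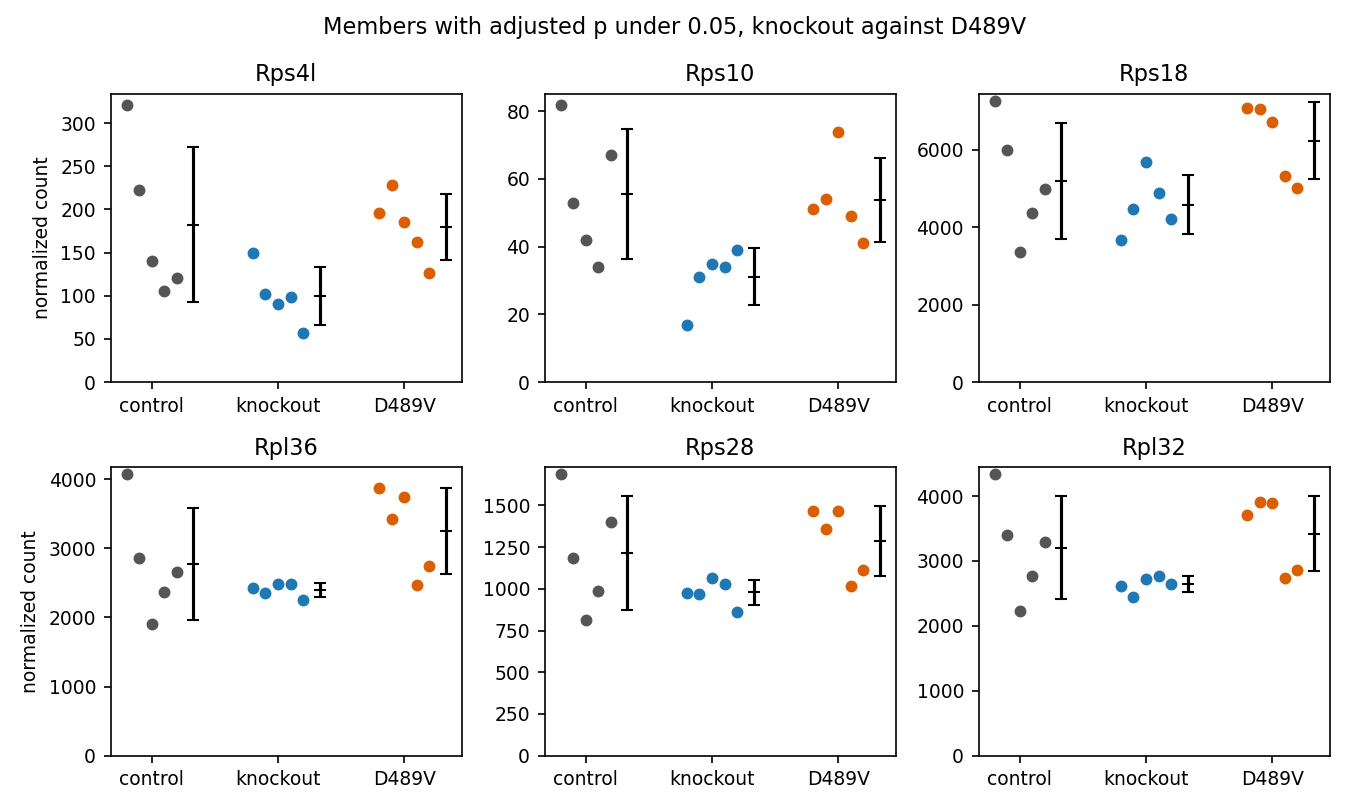
Normalized counts (vertical axes from 0) of 6 members with a limma adjusted p under 0.05 in knockout against D489V, with 1 point per sample in replicate order and the mean ± SD of 5 samples beside each group. D489V replicates 1 to 3 lie above every knockout sample in all 6 genes, and the controls span both groups in most of them.

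Several members with large differences did not pass. Rpl29 had a log2 difference of -0.57 (SE 0.195, limma adjusted p = 0.056) and Rpl30 one of 0.55 (SE 0.225, limma adjusted p = 0.0945). For Rpl7l1 the difference was 0.30 (SE 0.113, limma adjusted p = 0.0729), and for Rpl3l it was -0.077 (95% interval -0.28 to 0.13). The number of members that passed depended on single libraries. It was 0 without D489V replicate 1 or 2, 1 without D489V replicate 3, 14 without D489V replicate 4 and 12 without D489V replicate 5. It was 3 without knockout replicate 1, 2 without knockout replicate 2, 4 or 5, and 6 without knockout replicate 3. The median stayed negative in each of these, from -0.24 to -0.11.

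Markers of other cells moved in the same comparison. Here and in the lists below, markers or genes counted as lower or higher in knockout are those that passed the limma test. Of all genes tested, 10.3% passed as lower and 10.5% as higher. All 8 endothelial markers were lower in knockout than in D489V (summed level 10065 to 14767 against 17028 to 20692, with controls at 15202 to 22780). Of 8 adipocyte markers 6 were lower (11969 to 21212 against 30228 to 99325, with controls at 7282 to 69011), and the log2 differences of all 8 were negative. All 7 Schwann cell and nerve markers were lower (6325 to 9901 against 12461 to 50074, controls 8901 to 14371), as were 5 tested erythrocyte markers (3175 to 8038 against 12462 to 22164, controls 5682 to 8420). Of 8 mural markers 3 were lower and 1 was higher (114018 to 167626 against 139335 to 145286, controls 119725 to 150151). Des alone was 91075 to 143584 per sample, so the mural sum mostly follows that gene. The 3 lower markers were Kcnj8, Cspg4 and Myh11, with log2 differences of -0.66, -0.62 and -0.61, and the higher was Abcc9, 0.34. The mural log2 differences were negative in 7 and positive in 1. Of 7 tested markers of satellite cells and new fibres 1 was lower, Myh3, an embryonic myosin gene. The differences of these 7 were negative in 4 and positive in 3. No marker of slow fibres (9), fast fibres (10), B and T cells (7), macrophages (8) or fibro-adipogenic progenitors (8) passed. No listed marker was at 0 in all samples. The part of these cells in the differences of the ribosomal protein genes was not tested.

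The other genes of the pathway were counted from lists in the same comparison. Of 35 genes of ribosome biogenesis, 8 were higher and 1 was lower in knockout (10.5% and 10.3% of all genes tested), with a median log2 difference of 0.15, opposite in sign to the members. They included Tsr1, 0.72 (limma adjusted p = 0.00415), and Bop1, 0.37 (limma adjusted p = 0.0112), which act in maturation of the small and the large subunit, and Heatr1, 0.51 (limma adjusted p = 0.00749), which acts in the early processing of ribosomal RNA. The gene that was lower was Myc, a transcription factor for ribosome genes, with -0.78 (limma adjusted p = 0.0238). Of 5 tested ribosomal proteins whose names the rule does not match, 2 were lower, among them Fau, -0.34 (limma adjusted p = 0.037), which encodes a ubiquitin-like part fused to a ribosomal protein.

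Of 21 translation genes, Eef1g, 0.28 (limma adjusted p = 0.0291), and Eif2s3x, 0.91 (limma adjusted p = 0.0319), were higher. Eif2s3x, an X-linked initiation factor gene, is known to escape X inactivation. Eif4ebp1, an inhibitor of cap-dependent initiation that mTOR restrains, was lower by a log2 difference of -0.65 (limma adjusted p = 0.00921). Of 13 genes of growth signalling to the ribosome, 1 was higher, Rps6kb1, and 3 were lower, Eif4ebp1, Ddit4 and Igf1r. Rps6kb1 encodes the kinase of the ribosomal protein Rps6, and its log2 difference was 0.32 (limma adjusted p = 0.0375). Of 15 targets of p53, which ribosomal proteins can stabilise through Mdm2, Ccng1 was higher at 0.64 (limma adjusted p = 0.0227), and Cdkn1a, Plk2 and Plk3 were lower, at -0.96, -0.64 and -2.06 (limma adjusted p = 0.0188, 0.036 and 5.98e-04). In knockout against control and in D489V against control, no gene of these 5 lists passed in limma. An unadjusted p under 0.05 was found in knockout against control (15.1% of all genes) for 8 of 35 biogenesis genes, 4 of 13 growth signalling genes, 3 of 15 p53 targets, 1 of 21 translation genes and 0 of 5 other ribosomal proteins. In D489V against control (9.43% of all genes) these numbers were 2, 3, 3, 1 and 0.

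Knockout replicate 5 differed from the other knockout samples in which members were high rather than in the family's level. It was the highest of all 15 samples in 21 members and the lowest in 6. The like shares over all genes were not computed, so these counts are not shown to be particular to the family. This sample also had the most genes above 0, 23783, against 20799 to 23060 in the other 14 samples. Set against the mean of the other 4 knockout samples, Rpl22l1 was 3.96 times as high, Rpl39, a small protein of the exit tunnel, 2.68 times, Rps27 2.38 times and Rps15a, a small-subunit protein, 1.93 times. Rpl39 had 654, 657, 654, 751 and 1818 normalized counts in knockout replicates 1 to 5, 616 to 1287 in controls and 646 to 916 in D489V. Rps14 had 21945 in knockout 5, against 10922 to 15019 in the other 14 samples. At the other end, Rps4l was 0.516 times the mean of the other knockout samples. The members of lower GC content (median transcript GC of 51.9% or less, 40 genes) had a median difference from their own means of 0.26 in this sample, and the 39 members of higher GC had -0.050. The medians of these sets differed by less than 0.1 in the other 14 samples. In control replicate 1, the 40 members of shorter transcripts had a median of 0.45 and the 39 of longer transcripts 0.18. What the GC content and the length have to do with these values was not tested.

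**Figure D5:**
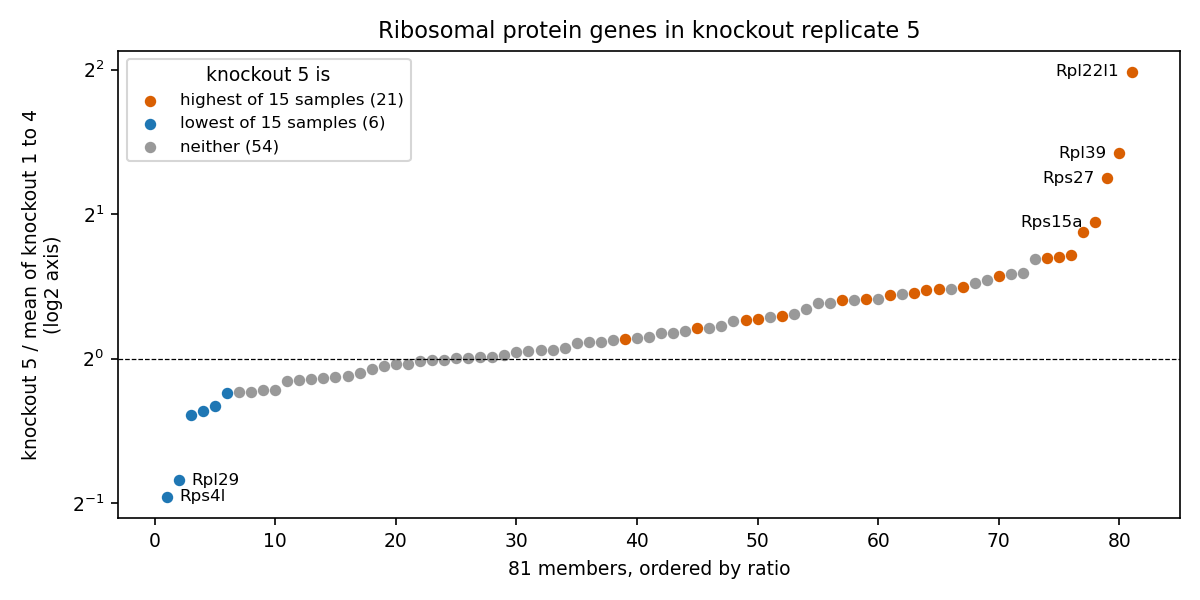
Ratio of the normalized count in knockout replicate 5 to the mean of knockout replicates 1 to 4 (vertical log2 axis) for the 81 members in order of the ratio; colours mark members for which this sample was the highest or the lowest of all 15. Rpl22l1, at 3.96, Rpl39, at 2.68, and Rps27, at 2.38, stand at the top and Rps4l, at 0.516, at the bottom.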

How the data were processed

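Poly(A) RNA of 15 muscle samples was sequenced with a directional kit, per the labels' protocols. The deposited values are a score: read counts that the authors normalized and rounded, per the table names. Trim Galore 0.6.0, STAR 2.7.0e, DESeq2 1.26.0 and GRCm38 are named in the submitters' processing notes, with no role or order, and counts of raw reads were not used here. Each of the 2 deposited tables holds the same 5 control columns and 1 mutant group. All 55536 identifiers matched GENCODE M21 on GRCm38, and start windows came from RefSeq. Members, gene lists, tests and alternatives were chosen with earlier results of these data known.

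For each pair of groups, 5 samples a side, limma 3.58.1 in R 4.3.3 was run on log2(value + 1), with two-sided tests, eBayes and an intensity trend, over genes reaching 10 in at least 5 samples. The adjustment was that of Benjamini and Hochberg over all genes, with a threshold of 0.05. Differences on this scale understate the change of low genes. Read depth per sample is unknown, so no counting intervals are given. Named genes are the paralogue pairs, called members, the 5 most positive and negative per comparison, the extremes of level, and those nearest the threshold, from which those shown were taken. Rpl39, Rps15a, Rplp0, Rpl7 and Rpl19 were also named after their values were seen. On data simulated for knockout against control, the fit recovered 25 of 67 genes changed by 0.5 on the log2 scale. It recovered 59 of 64 changed by 1 and 66 of 66 changed by 2, with 7 false calls among 15482 genes. The simulation gave every gene the same dispersion and drew values independently, without the common movement of samples seen in the members. These rates therefore do not measure the power to find changes of members in the real data. Results for some genes are not reported here. Alternatives changed pseudocount, filter, scaling, variance model and sample weights, added a replicate block and left out each replicate.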

Additional observations from a re-analysis of the deposited data

Results flagged for a closer look

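Dixon's test at the 95% level was applied to 114 groups of 5 samples, made up of members and paralogue ratios chosen for naming. In 11 groups it marked a sample as far from the other 4. For unselected groups chance would give about 5.7 (1 in 20). Some of these members were named for large differences in the same data, so that rate does not hold here and no excess can be read from the count. Of the 11 marked samples, 8 were in knockout replicate 5, and genes of 1 sample are not independent. In that sample Rpl22 was 3529 normalized counts (others of the group 2551 to 2829), Rpl22l1 2869 (654 to 850), Rpl39 1818 (654 to 751), Rpl7l1 1762 (1398 to 1487), Rps14 21945 (12332 to 14196), Rps27 4191 (1525 to 2023) and Rps27l 2286 (1090 to 1356). The log2 ratio of Rpl22l1 to Rpl22 was -0.30 there and -2.03 to -1.62 in the other knockout samples. Elsewhere, Rpl3 was 2823 in D489V replicate 3 (1878 to 2100 in the others), Rpl6l 7 in knockout replicate 4 (11 to 12) and Rps2 13651 in control replicate 3 (26558 to 30051).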

How the results depend on the processing

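In knockout against control and in D489V against control the number of called members was 0 under all 20 alternatives of each. In knockout against D489V it was 7 and became 2 with no filter on low values, 11 with quantile normalization, 22 with array weights, 1 with all 15 samples in a single fit, and 0 to 14 when a replicate was left out. With the replicate number as a block it was 4, since Rps10, Rps18, Rps28 and Rpl32 no longer passed (limma adjusted p 0.0693, 0.0595, 0.0511 and 0.0781), Rps4l and Rpl36 were among those that still passed, and Rpl29 then passed (0.0225). Same-numbered samples correlated between -0.4 and 0.386, and the replicate numbers were not taken as a pairing. Over all alternatives, the limma adjusted p of Rps4l lay between 0.00908 and 0.0661, and Rps4l passed in 17 of 20. The other named calls were less steady. Rpl36 and Rps28 each passed in 10 of 20 (limma adjusted p up to 0.0886 and 0.115). Rps18 and Rpl32 each passed in 9 of 20 (up to 0.0979 and 0.106), and Rps10 in 6 of 19 (up to 0.0986). The medians and shares moved by less than the spread between replicates in every alternative, with medians of -0.16 to 0.0085, -0.0023 to 0.17 and -0.24 to -0.11 when a replicate was left out. The difference of Rpl3l in knockout against control became -0.0072 with upper-quartile rescaling, -0.0079 when rescaled by the total of other genes, -0.12 with quantile normalization and -0.0011 to 0.083 when a replicate was left out, and that of Rps27 was -0.031 to 0.33. No paralogue ratio passed under any alternative, but left-out replicates gave ranges across 0 for Rpl22l1/Rpl22 in knockout against control (-0.25 to 0.18) and against D489V (-0.0054 to 0.43), Rps4l/Rps4x (-0.12 to 0.29) and Eef1a2/Eef1a1 (-0.2 to 0.026) in D489V against control, and Rpl3l/Rpl3 (-0.031 to 0.48) and Rps27l/Rps27 (-0.026 to 0.13) in knockout against D489V. The level of Rpl3l over Rpl3 per kb was 7.54 in place of 14.7 with the longest coding sequence as length, and the order of the highest members also changed, an alternative chosen after seeing the data. The cause of these changes was not tested.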
